A study of Mus musculus with 15 samples.

Results

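The gene set described here holds 10 genes that are known as feedback targets of Wnt signalling: Axin2, Nkd1, Sp5, Cdx1, Znrf3, Rnf43, Lgr5, Apcdd1, Notum and Dkk1. They are listed by name, and each matched 1 row of a deposited count table of 49585 genes. Of the 10, 9 had enough counts to enter the test, and Lgr5 did not. RNA was measured by sequencing of poly(A)-selected RNA in 15 libraries of wild-type E14 cells, a mouse embryonic stem (ES) cell line. Per the labels, all cells were first kept in 0.4 µM PD0325901, which blocks the kinase MEK, 3 µM CHIR99021, which blocks the kinase GSK3, and 4 ng/ml Lif. They went from there into Matrigel of the growth factor reduced kind (2000 cells for each µl of gel), and the gel was covered with N2B27 medium. Each of 5 supplements to this medium gave 3 libraries: 2iLif, FGF2/Activin (also written FAK), PD032, Aurka inh, and both inhibitors in PD032+ Aurka inh, which is called the combination from here on. What PD032 and FAK stand for, which Aurora kinase A compound was used, its dose in the gel and the days of treatment do not appear in the labels. N2B27 without a supplement is not among the groups. Nothing in the labels says whether the 3 libraries of a group came from separate cultures, so a p-value covers only the spread among them, which may be technical.

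In Wnt signalling, a secreted Wnt protein binds a Frizzled receptor and its partner LRP5 or LRP6, and this stops a cytoplasmic complex of Axin, Apc, casein kinase 1 and GSK3 from marking β-catenin for destruction. Stable β-catenin enters the nucleus, joins DNA-bound Tcf/Lef factors and switches on target genes, several of which encode brakes on the pathway itself. Blocking GSK3 stabilises β-catenin without a ligand, and this is the role of CHIR99021 in medium for naive ES cells.

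Promoter sequences are shown for the 3 genes on which the results below mostly turn or whose window held a motif. RefSeq windows on GRCm38.p6 were found for 5 of the 10 genes (Axin2, Sp5, Dkk1, Nkd1 and Rnf43, the last with 2 windows). Each run below gives the 250 bases before the annotated start, 5′ to 3′ along the gene's strand, and capitals mark a match on either strand to the motif CTTTGAT, the motif CTTTGAA, the motif CTTTGTT or the motif CTTTGTA, letters that Tcf/Lef factors are known to bind. The 4 motifs share their first 5 letters, and the matches shown do not overlap each other.

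Sp5, chr2:70474673-70474922, plus strand: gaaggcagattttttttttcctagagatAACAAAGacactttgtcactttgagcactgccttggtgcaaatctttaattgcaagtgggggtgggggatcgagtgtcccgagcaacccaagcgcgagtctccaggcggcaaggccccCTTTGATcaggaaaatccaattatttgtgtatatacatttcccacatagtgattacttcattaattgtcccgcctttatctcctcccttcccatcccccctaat
Dkk1, chr19:30549497-30549746, minus strand: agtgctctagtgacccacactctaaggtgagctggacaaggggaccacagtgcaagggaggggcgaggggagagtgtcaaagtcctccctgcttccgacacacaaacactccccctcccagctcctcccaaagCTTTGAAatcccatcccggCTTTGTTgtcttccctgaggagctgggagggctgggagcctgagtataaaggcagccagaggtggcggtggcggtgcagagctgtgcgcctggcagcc
Axin2, chr11:108920099-108920348, plus strand: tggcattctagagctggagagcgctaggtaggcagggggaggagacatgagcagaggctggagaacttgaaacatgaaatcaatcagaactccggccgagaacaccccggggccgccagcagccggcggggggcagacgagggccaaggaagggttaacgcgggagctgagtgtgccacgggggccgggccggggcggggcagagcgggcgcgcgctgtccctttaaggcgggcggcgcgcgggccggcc

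The Sp5 window held AACAAAG, the reverse complement of CTTTGTT, 222 bases before the start and CTTTGAT 104 bases before it. The Dkk1 window held CTTTGAA at 117 and CTTTGTT at 98 bases before the start. None of the 4 motifs stood in the windows of Axin2, Nkd1 or Rnf43. At least 1 of them stood in 14.8% of 32851 mouse promoter windows of the same length, so a match is common and describes letters only. A gene without a match here may hold such letters elsewhere.

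In mm10 coordinates with GENCODE M21 gene models, 4 of the genes lie on chromosome 11: Znrf3 (5276324 to 5444847, minus strand), Rnf43 (87662722 to 87735539, plus), Axin2 (108920349 to 108950783, plus) and Notum (120653788 to 120661175, minus). Sp5 spans 70474923 to 70477729 on chromosome 2 (plus), Nkd1 88521354 to 88594884 on chromosome 8 (plus), and Lgr5 115450311 to 115587780 on chromosome 10 (minus). Cdx1 (61018862 to 61036199, minus) and Apcdd1 (62922231 to 62961179, plus) share chromosome 18, and Dkk1 lies on chromosome 19 (30545863 to 30549665, minus). All 10 are annotated as protein coding. The RefSeq starts of the promoter windows match these models for Sp5 and Axin2 but lie inside the GENCODE spans of Dkk1, Nkd1 and Rnf43. Both Dkk1 motifs therefore stand before the RefSeq start but within the GENCODE span of the gene.

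Total counts ran from 15199507 to 15818758 per library in 2iLif and FGF2/Activin, and from 16010904 to 24202544 in the 3 inhibitor groups, where replicate 2 was the shallowest library of each group. The library descriptions of 2iLif and FGF2/Activin follow 1 naming style and those of the inhibitor groups another, so 4 of the 10 comparisons lie within a style, and in the other 6 the style cannot be told apart from the group. Markers of ES cells (8 of 8 tested, among them Pou5f1 and Sox2) summed to 2606 to 4094 CPM (counts scaled to the library total) per library, highest in 2iLif. Not every marker followed this sum: by edgeR adjusted p under 0.05, 5 of the 8 were lower than 2iLif in each other group. FGF2/Activin, Aurka inh and PD032 each had 2 higher than 2iLif, and the combination had 1. Markers of neuroectoderm (5 listed, 3 tested) summed to 8.77 to 11.1 CPM in 2iLif and to 18.4 to 58.9 in the other groups. Here too the 3 tested genes did not move together against 2iLif. By the same threshold, FGF2/Activin and Aurka inh each had 1 higher and 1 lower. The combination had 2 higher and 1 lower, and PD032 had 2 higher and none lower. Of 7 fibroblast markers 3 were tested, and the summed level was 2.47 to 3.04 CPM in 2iLif, 18.97 to 20.6 in FGF2/Activin and 4.13 to 19.6 in the inhibitor groups. Postn was at 0 counts in every group and Lum in all but Aurka inh. Mesoderm markers (7 listed, 6 tested, 2 of them also Wnt targets) summed to 18.26 to 20.25 CPM in 2iLif, 14.88 to 20.05 in FGF2/Activin and 18 to 23.5 in Aurka inh. The sums were 8.55 to 11.22 CPM in PD032, with Mesp1 at 0 there, and 6.77 to 8.93 in the combination. Primitive endoderm markers (7 listed, 4 tested) summed to 1.52 to 7.73 CPM over all libraries. The part of these markers in the levels below was not tested, and in bulk RNA fewer cells with a transcript and less RNA per cell cannot be told apart.

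Axin2, the scaffold that rebuilds the destruction complex and the most widely used readout of β-catenin activity, was high in 2iLif, Aurka inh and the combination and low in FGF2/Activin and PD032. Its level was 130.3, 124 and 118 CPM in the 3 libraries of 2iLif, 12.5, 11.6 and 14.25 in FGF2/Activin, 4.66, 4.24 and 3.43 in PD032, 100.5, 99.3 and 91.8 in Aurka inh, and 79.9, 82.4 and 77.9 in the combination. No group's libraries overlapped those of any other group. The order was 2iLif, Aurka inh, the combination, FGF2/Activin and PD032, and each group passed against its neighbour (edgeR quasi-likelihood test, adjusted p from 0.00588 for the combination against Aurka inh to 4.39e-13 for the combination against FGF2/Activin). Axin2 passed in all 10 comparisons, the only member that did. In the combination the level was 19.5 times that in PD032 alone (log2 fold change 4.29 ± 0.09 SE, edgeR adjusted p = 1.33e-14). Against Aurka inh alone it was lower by a much smaller step (-0.28 ± 0.07, edgeR adjusted p = 0.00588).

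Nkd1, a cytoplasmic protein that binds Dishevelled and dampens the signal, differed in pattern from the other tested members: it was lowest in 2iLif and in the combination. Its values were 0.975, 0.879 and 1.17 CPM in 2iLif, 4.19, 5.68 and 3.71 in FGF2/Activin, 2.97, 2.74 and 3.17 in PD032, 5.28, 3.46 and 6.71 in Aurka inh, and 1.84, 0.731 and 1.124 in the combination. The libraries of 2iLif and the combination overlapped each other and lay below all libraries of the other 3 groups. FGF2/Activin stood above 2iLif (log2 fold change 2.16 ± 0.32 SE, edgeR adjusted p = 1.78e-05). The combination stood below PD032 (-1.25 ± 0.29, edgeR adjusted p = 0.00252) and below Aurka inh (-2.06 ± 0.28, edgeR adjusted p = 3.14e-05). In the order Aurka inh, FGF2/Activin, PD032, the combination and 2iLif, only the step from PD032 to the combination passed; the other 3 steps had edgeR adjusted p of 0.514, 0.0523 and 0.537. Aurka inh against PD032 passed (0.80 ± 0.25, edgeR adjusted p = 0.0145), but not without Aurka inh replicate 3 (0.58, edgeR adjusted p = 0.0939).

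**Figure D1:**
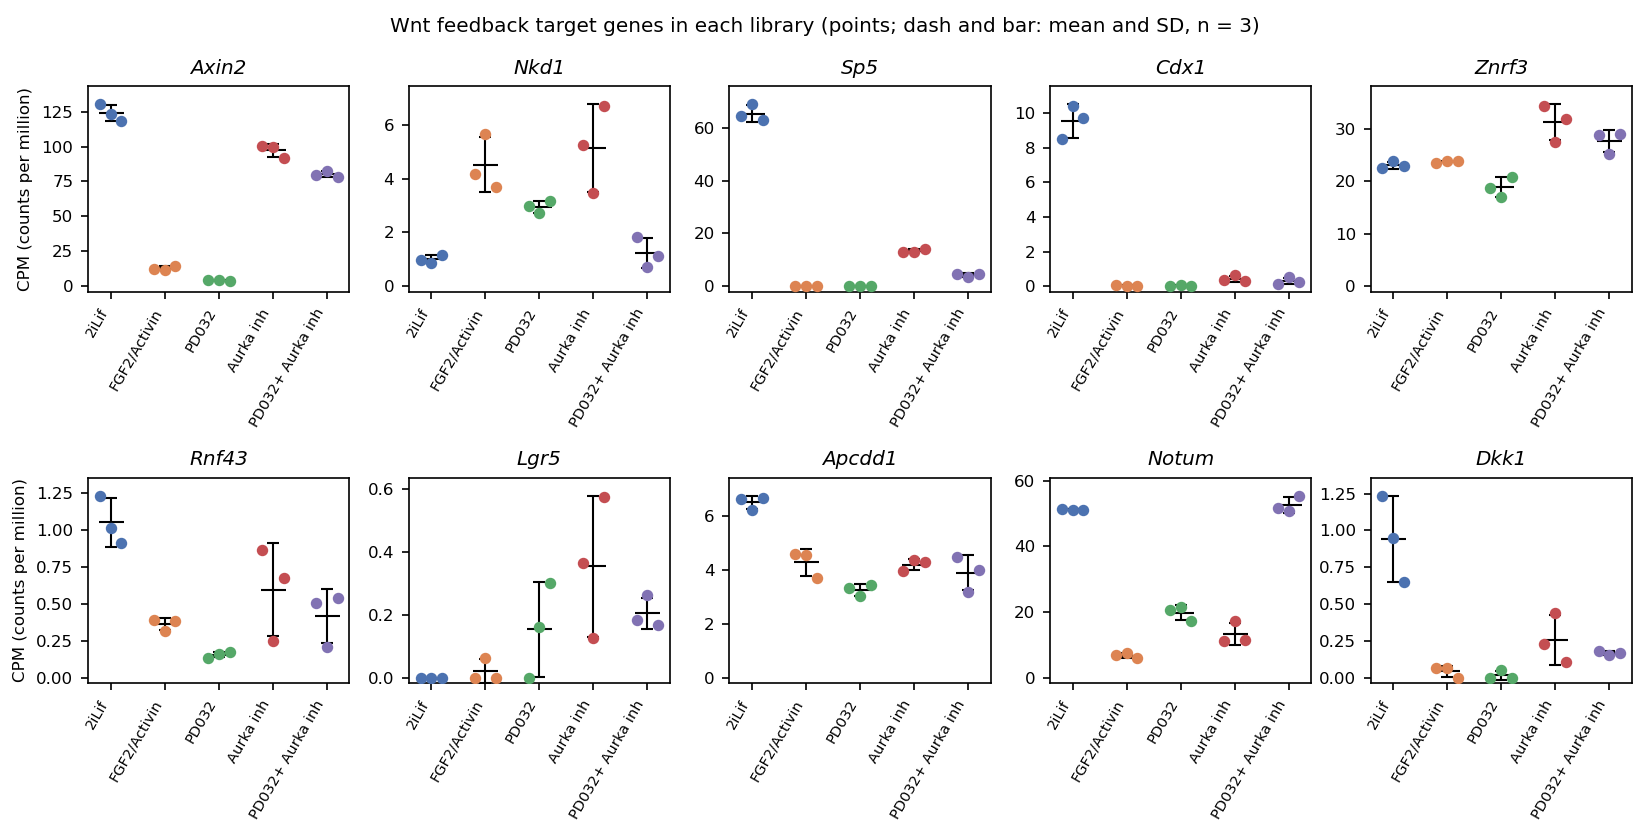
Level of each of the 10 genes in every library, in CPM, the count per TMM-scaled library total (vertical axis, a separate scale per gene) for the 5 culture groups (horizontal axis); points are libraries, dash and bar are mean and SD of 3 libraries. Axin2, Sp5, Cdx1 and Dkk1 peak in 2iLif, Notum overlaps between the combination and 2iLif, and Nkd1 is lowest in those 2 groups.

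Sp5, a zinc-finger transcription factor and a known direct β-catenin target in ES cells, was well counted in 2iLif and not detected in PD032. It had 990, 1019 and 965 counts in 2iLif (64.3, 68.9 and 62.8 CPM), 0, 1 and 0 counts in FGF2/Activin, and 0 counts in all PD032 libraries, which allows up to 0.0482 CPM over that group. It had 282, 204 and 271 counts in Aurka inh (12.8, 12.8 and 14.1 CPM) and 97, 65 and 115 in the combination (4.47, 3.40 and 4.79 CPM). Only FGF2/Activin and PD032 overlapped. Against PD032, where the limit of 3 counts sets a lower bound, the Sp5 count per total was at least 88.0-fold higher in the combination, at least 277-fold higher in Aurka inh and at least 1320-fold higher in 2iLif. Each of these passed, with edgeR adjusted p of 1.28e-09, 2.03e-11 and 8.68e-14. Against FGF2/Activin the 2iLif count ratio was 2960 (95% exact interval 532 to 117000, edgeR adjusted p = 1.01e-13). The single count lay in replicate 2 of FGF2/Activin, and with that library left out 2iLif was at least 656-fold higher. The combination was below Aurka inh (log2 fold change -1.64 ± 0.12 SE, edgeR adjusted p = 2.72e-07), and the difference between FGF2/Activin and PD032 did not pass (edgeR adjusted p = 0.251). Such intervals cover counting error only, since no molecular identifiers are stated. The bounds also leave out the spread among libraries, and they take the count of the higher group as exact.

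Cdx1, a homeobox factor of the posterior embryo and a known Wnt and retinoic acid target, was, like Sp5, near 0 in FGF2/Activin and PD032 and higher in both groups with Aurka inh, though at a few percent of its 2iLif level. Its counts were 131, 154 and 149 in 2iLif (8.51, 10.4 and 9.70 CPM), 1, 0 and 0 in FGF2/Activin, 0, 1 and 0 in PD032, 8, 10 and 6 in Aurka inh, and 3, 10 and 6 in the combination. The 2iLif libraries lay above all others, and all libraries of Aurka inh and the combination lay above those of FGF2/Activin and PD032. The mean was 4.56% ± 1.78 of the 2iLif mean in Aurka inh and 3.18% ± 2.07 in the combination (SD, n = 3), against 20.3% ± 1.116 and 6.45% ± 1.116 for Sp5 and 78.4% ± 3.78 and 64.5% ± 1.81 for Axin2. The Cdx1 count in 2iLif was 433 times that in FGF2/Activin per total (95% exact interval 77.2 to 17100, edgeR adjusted p = 2.48e-10). The combination exceeded PD032 by a count ratio of 18.1 (2.88 to 753, edgeR adjusted p = 0.00295) and Aurka inh exceeded it by 26.4 (4.3 to 1090, edgeR adjusted p = 0.000643). These 2 ratios rest on the single count of PD032 replicate 2: without it the bounds were at least 4.25-fold and at least 6.2-fold higher, and without FGF2/Activin replicate 1 the bound for 2iLif was at least 97.1-fold higher. Aurka inh and the combination did not differ in the test (-0.51 ± 0.48, edgeR adjusted p = 0.445).

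Znrf3, a membrane ubiquitin ligase that removes Frizzled from the cell surface, differed by at most 1.66-fold in any of the 10 comparisons. It measured 22.5, 23.8 and 22.9 CPM in 2iLif, 23.6, 23.8 and 23.95 in FGF2/Activin, 18.8, 17.02 and 20.8 in PD032, 34.3, 27.6 and 31.9 in Aurka inh, and 28.8, 25.2 and 28.9 in the combination. The PD032 libraries lay below, and the Aurka inh and combination libraries above, every library of 2iLif and FGF2/Activin. The level in the combination was 1.46 times that in PD032 (log2 fold change 0.55 ± 0.09 SE, edgeR adjusted p = 0.000106), and Aurka inh also exceeded PD032 (0.73 ± 0.09, edgeR adjusted p = 6.09e-06). FGF2/Activin against 2iLif did not pass (0.05 ± 0.09, edgeR adjusted p = 0.685). The combination against Aurka inh did not pass (-0.18 ± 0.09, edgeR adjusted p = 0.124) unless replicate number was a block in the fit (-0.20, edgeR adjusted p = 0.0129) or Aurka inh replicate 2 was left out (-0.26, edgeR adjusted p = 0.0227).

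Rnf43, the paralog of Znrf3 with the same role, was scarce, at 48 counts over 2iLif, 17 over FGF2/Activin, 10 over PD032, 36 over Aurka inh and 28 over the combination. Its libraries read 1.24, 1.02 and 0.912 CPM in 2iLif, 0.393, 0.319 and 0.383 in FGF2/Activin, 0.137, 0.161 and 0.171 in PD032, 0.864, 0.252 and 0.676 in Aurka inh, and 0.506, 0.209 and 0.541 in the combination. Replicate 2 was the lowest library in both groups with Aurka inh, and PD032 overlapped no other group. No step between neighbours in the order 2iLif, Aurka inh, the combination, FGF2/Activin and PD032 passed. Wider steps did: FGF2/Activin was below 2iLif (log2 fold change -1.51 ± 0.40 SE, edgeR adjusted p = 0.00342) and Aurka inh above PD032 (1.95 ± 0.47, edgeR adjusted p = 0.00301). The combination passed against PD032 (1.42 ± 0.49, edgeR adjusted p = 0.0292) but lost the call without combination replicate 1 or 3 or without any 1 of the PD032 replicates, where edgeR adjusted p lay between 0.0536 and 0.118.

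Lgr5, a receptor for R-spondins that marks stem cells of the intestine, was too low to test. Its counts were 0 in all 2iLif libraries (a limit of 0.0641 CPM over the group), 0, 1 and 0 in FGF2/Activin, 0, 3 and 7 in PD032, 8, 2 and 11 in Aurka inh and 4, 5 and 4 in the combination. Unlike the other members it was not detected in 2iLif. The count per total was at least 5.78-fold higher in Aurka inh, at least 3.1-fold higher in the combination and at least 2.5-fold higher in PD032 than in 2iLif. These bounds take the few counts of the higher group as exact.

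Apcdd1, a membrane glycoprotein that binds Wnt and LRP5, was highest in 2iLif and showed little spread between the other groups. It measured 6.63, 6.22 and 6.64 CPM in 2iLif, 4.59, 4.53 and 3.71 in FGF2/Activin, 3.34, 3.01 and 3.43 in PD032, 3.96, 4.34 and 4.27 in Aurka inh, and 4.47, 3.19 and 4.00 in the combination. All 2iLif libraries lay above all others, and the combination overlapped each of the remaining 3 groups. FGF2/Activin was below 2iLif (log2 fold change -0.60 ± 0.14 SE, edgeR adjusted p = 0.00112), and PD032 stood at 50.1% ± 3.42 of the 2iLif mean (SD, n = 3). Among the inhibitor groups no Apcdd1 comparison passed. Aurka inh against PD032 came closest (0.35 ± 0.14, edgeR adjusted p = 0.0511) and passed with DESeq2 size factors or a stricter filter, at adjusted p of 0.0379 and 0.0417, and the combination passed against PD032 without combination replicate 2 (0.37, edgeR adjusted p = 0.0436).

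Notum, a secreted esterase that removes the lipid from Wnt proteins, had a pattern of its own among the members. Its libraries overlapped between the combination and 2iLif, as those of Nkd1 did, but unlike Nkd1 it was lower with either inhibitor alone. Its libraries read 51.3, 51.2 and 51.2 CPM in 2iLif, 6.82, 7.40 and 5.88 in FGF2/Activin, 20.7, 21.7 and 17.1 in PD032, 11.3, 17.2 and 11.4 in Aurka inh, and 51.8, 50.7 and 55.5 in the combination. The combination and 2iLif overlapped, PD032 and Aurka inh overlapped through 1 library each, and FGF2/Activin lay below all the rest. The combination exceeded PD032 (log2 fold change 1.41 ± 0.12 SE, edgeR adjusted p = 1.119e-07) and exceeded Aurka inh (2.00 ± 0.13, edgeR adjusted p = 1.05e-08). Against 2iLif it did not pass (0.04 ± 0.12, edgeR adjusted p = 0.805). Aurka inh alone was below PD032 alone (-0.59 ± 0.13, edgeR adjusted p = 0.00169), the reverse of Axin2, Sp5 and Znrf3. FGF2/Activin stood 7.65 times below 2iLif (-2.94 ± 0.14, edgeR adjusted p = 2.91e-11).

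The summed level of trophoblast markers (5 listed, 2 tested) was, as that of Notum was, highest in 2iLif and the combination, which overlapped, and lowest in FGF2/Activin. They summed to 55.1 to 56.2 CPM in 2iLif, 7.92 to 8.36 in FGF2/Activin, 27.9 to 29.2 in PD032, 16.6 to 23.7 in Aurka inh and 38.3 to 59.7 in the combination. Most of the 2iLif sum was Tfap2c (53.7 ± 0.46 CPM, SD, n = 3), which naive ES cells also express. Hand1 and Gcm1 were at 0 counts in 2iLif and Elf5 at no more than 0.192 CPM in any library. Ascl2, the other one tested and also among the other Wnt targets below, did not follow the sum. It was lowest in 2iLif (1.85 ± 0.31 CPM) and highest in PD032 (11.7 ± 2.33). FGF2/Activin had 5.80 ± 0.56, Aurka inh 8.42 ± 1.94 and the combination 5.47 ± 1.08. The part of these markers in the Notum level was not tested.

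The antisense gene Notumos overlaps Notum, with 318 counts over 2iLif, 24 over FGF2/Activin, 133 over PD032, 110 over Aurka inh and 484 over the combination, and so does Myadml2os, with 71, 2, 29, 23 and 124 counts in the same order of groups. Both were highest in the combination and 2iLif, as Notum was. The kit marks strand, but the strand setting of the counting is not given in the sources used here, so reads of Notum and of its antisense genes may not have been told apart. The antisense gene at Axin2, Gm11670, had 14 counts in all libraries together, against 17245 for Axin2.

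Dkk1, a secreted protein that blocks LRP5 and LRP6, was scarce even in 2iLif. Its counts were 19, 14 and 10 in 2iLif, 1, 1 and 0 in FGF2/Activin, 0, 1 and 0 in PD032, 5, 7 and 2 in Aurka inh, and 4, 3 and 4 in the combination. The 2iLif libraries lay above all others in CPM, and PD032 lay below both groups with Aurka inh. The count ratio of 2iLif to FGF2/Activin was 21.4 (95% exact interval 5.58 to 183, edgeR adjusted p = 2.51e-05). For the combination against PD032 it was 10.5 (1.52 to 451, edgeR adjusted p = 0.0196) and for Aurka inh against PD032 it was 15.4 (2.34 to 651, edgeR adjusted p = 0.00504). Without PD032 replicate 2, which held the single count, the bounds were at least 2.46-fold and at least 3.61-fold higher. The call of the combination against PD032 was lost without PD032 replicate 1 or 3 (edgeR adjusted p = 0.0718 and 0.0784). Dkk1 and Cdx1 entered the test through their 2iLif libraries, so that some difference from 2iLif was built into their being tested. Rnf43 also needed its 2iLif libraries to enter, since only Aurka inh replicates 1 and 3 reached the filter's level elsewhere. This limit holds for the counts of members lower than 2iLif given below, and for the direction, size and median of such differences.

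Of the 9 members tested, FGF2/Activin differed from 2iLif in 8, against 65.9% of all 15223 genes tested: 7 were lower, against 32.6% of all genes, and Nkd1 was higher, against 33.3%. The median log2 fold change of the tested members was -2.94, beside -0.01 over all genes. With so many genes called, passing the test sets few genes apart in this comparison. The 7 lower members ranged from Apcdd1, 1.52 times lower, to Sp5, for which a single count remained. They include Rnf43, Dkk1 and Cdx1, whose direction and size fall under the limit given above. Znrf3 did not pass.

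The combination differed from PD032 in 8 of the 9, where 43.7% of all genes were called. The 7 higher members (Axin2, Sp5, Cdx1, Znrf3, Rnf43, Notum and Dkk1) compare with 20% of all genes called higher, and Nkd1 was the lower one, where 23.8% were called lower. Median log2 fold changes were 1.42 for the members and 0.01 for all genes. Aurka inh differed from PD032 also in 8, with 45.5% of all genes called: 7 were higher (19.7% of all genes), now with Nkd1 among them, and Notum was lower (25.8%), with medians of 1.95 and -0.02. These comparisons share the PD032 libraries. Apcdd1 did not pass in either.

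The combination against Aurka inh gave 4 calls among the 9, where 34.9% of all genes were called. Axin2, Sp5 and Nkd1 were lower, where 16.3% of all genes were called lower, and Notum was higher, where 18.6% were called higher. The medians were -0.51 for the members and 0.01 for all genes. The other 5 did not pass.

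**Figure D2:**
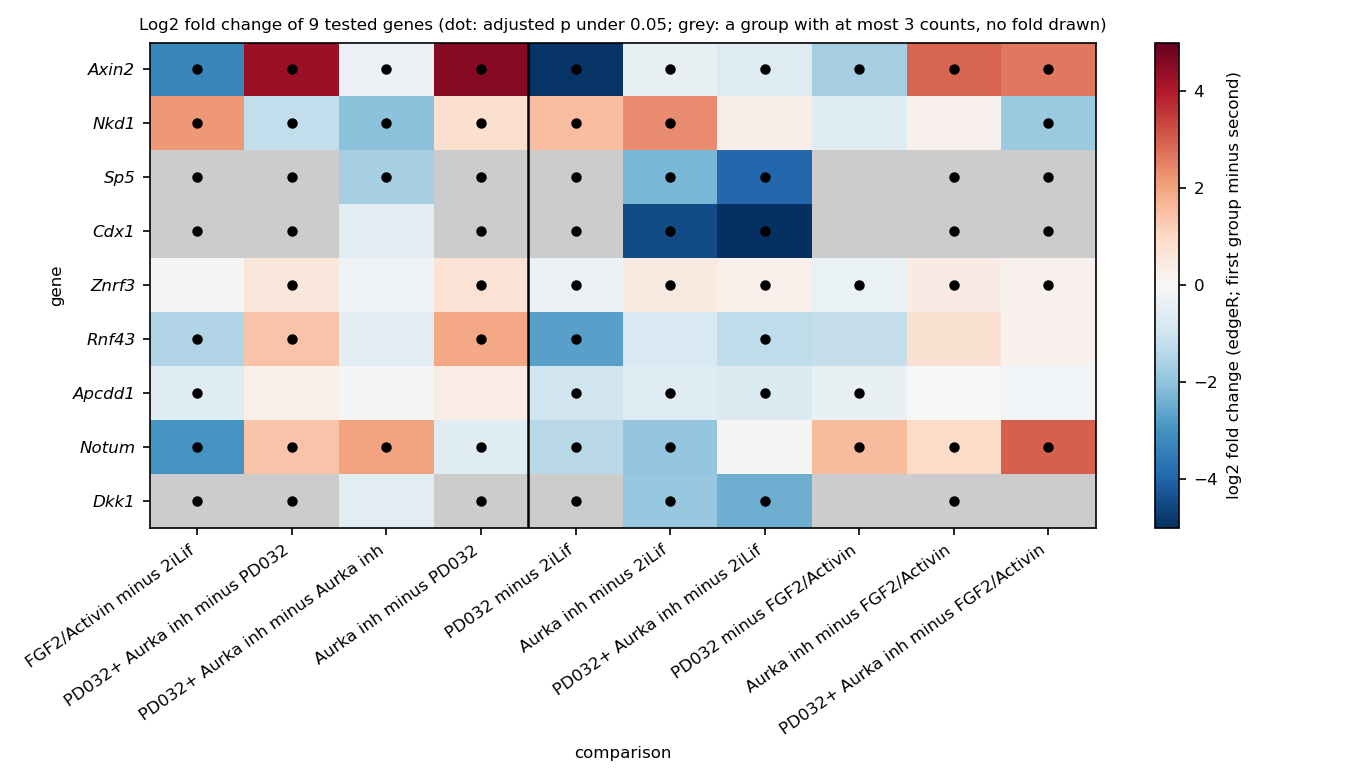
Log2 fold change from edgeR (colour; first group minus second) of the 9 tested genes (rows) in the 10 comparisons (columns), with a dot where the adjusted p was under 0.05 and grey where a group held at most 3 counts and no fold is drawn. The black line parts the 4 comparisons within a naming style from the 6 across styles; Axin2 has a dot in all 10 columns, and Notum and Nkd1 take opposite signs in the combination against either inhibitor.

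Across the naming styles, all 9 members differed between PD032 and 2iLif, where 63% of all genes were called; 8 were lower (30.9% of all genes) and Nkd1 was higher (32.1%). Aurka inh differed from 2iLif in 8 (58.4% of all genes): 6 were lower (29.5%), and Znrf3 and Nkd1 were higher (28.9%). The combination differed from 2iLif in 7 (47.6%), with 6 lower (23.8%) and Znrf3 higher (also 23.8%), and that Znrf3 call was lost without 2iLif replicate 1 or 3 or without combination replicate 1 or 3 (edgeR adjusted p between 0.0638 and 0.0865). In the combination against 2iLif, Sp5 was 15.4 times lower (log2 fold change -3.94 ± 0.12 SE, edgeR adjusted p = 8.08e-12) and Cdx1 31.8 times lower (-4.99 ± 0.30, edgeR adjusted p = 2.00e-09). Axin2 in the combination was 1.55 times lower than in 2iLif (-0.63 ± 0.07, edgeR adjusted p = 2.42e-06).

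Against FGF2/Activin, PD032 differed in 4 members, where 59% of all genes were called: Axin2, Znrf3 and Apcdd1 were lower (29% of all genes) and Notum was higher (30%). The Apcdd1 call was lost without FGF2/Activin replicate 1 or 2 or without PD032 replicate 1 or 2 (edgeR adjusted p between 0.0556 and 0.103). Nkd1 did not pass (edgeR adjusted p = 0.0523) but did without FGF2/Activin replicate 3 (0.0410), with DESeq2 size factors (0.0438), with no filter on low counts (0.0115), with only the 2 groups in the fit (0.0147) and with replicate number as a block (0.0347). Aurka inh exceeded FGF2/Activin in 6 members, where 55.1% of all genes were called, 25% higher and 30.1% lower. These were Axin2, Sp5, Cdx1, Znrf3, Notum and Dkk1, and no member was lower. The Dkk1 call was lost without Aurka inh replicate 2 or FGF2/Activin replicate 3 (edgeR adjusted p = 0.109 and 0.0981) and with DESeq2 (adjusted p = 0.0749). The combination differed from FGF2/Activin in 6, where 66.8% of all genes were called, with 5 higher (33%) and Nkd1 lower (33.8%). Among these the Znrf3 call (0.22 ± 0.09, edgeR adjusted p = 0.0408) was lost in 5 of 6 fits that left out 1 library, at edgeR adjusted p between 0.0689 and 0.127. Notum stood 7.86 times above FGF2/Activin in the combination (2.97 ± 0.14, edgeR adjusted p = 3.65e-11).

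Levels per kb of exon let the members be ranked within a group. In 2iLif, Sp5 led at 31.1 ± 1.51 CPM per kb, followed by Axin2 at 22.5 ± 1.09 and Notum at 21.3 ± 0.03 (SD, n = 3). In FGF2/Activin, Znrf3, Notum and Axin2 lay close together, at 3.01 ± 0.02, 2.78 ± 0.32 and 2.32 ± 0.24 CPM per kb. PD032 put Notum first at 8.24 ± 0.99, above Znrf3 at 2.39 ± 0.24, and Axin2 at 0.747 ± 0.114. Axin2 led in Aurka inh at 17.7 ± 0.85, ahead of Sp5 at 6.31 ± 0.35 and Notum at 5.52 ± 1.40. In the combination Notum led again, at 21.9 ± 1.04, above Axin2 at 14.5 ± 0.41, with Znrf3 at 3.502 ± 0.266 and Sp5 at 2.01 ± 0.35.

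Ratios within a library show how far the members moved apart. Notum over Axin2, per kb, was 0.901 to 0.990 in 2iLif and 0.943 to 1.46 in FGF2/Activin, near 1 in both. It was 10.2 to 11.7 in PD032, 0.258 to 0.396 in Aurka inh and 1.41 to 1.63 in the combination. FGF2/Activin overlapped 2iLif on one side and the combination on the other, and no other groups overlapped. Sp5 over Axin2 was 1.29 to 1.46 in 2iLif, 0.335 to 0.402 in Aurka inh and 0.108 to 0.161 in the combination, with no overlap, and at most 0.0144 in FGF2/Activin. Notum over Sp5 was 0.648 to 0.711 in 2iLif, 0.705 to 1.17 in Aurka inh and 10.1 to 13.0 in the combination. The ratios were not tested.

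**Figure D3:**
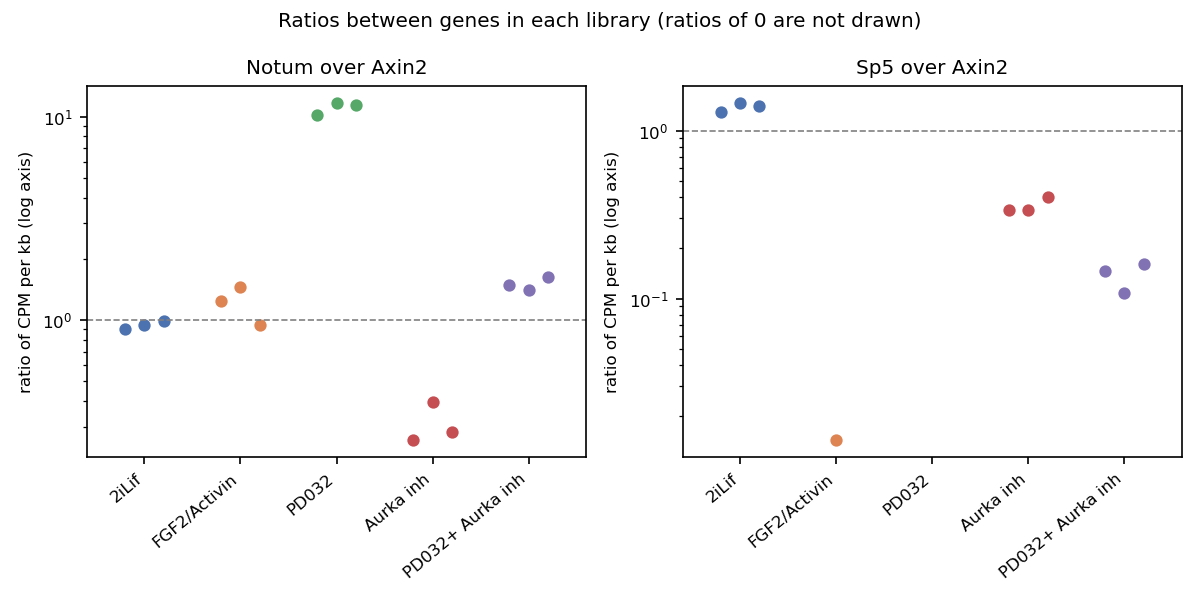
Ratio of CPM per kb (vertical log axis) of Notum to Axin2 (left) and of Sp5 to Axin2 (right) in each library (points) of the 5 groups; ratios of 0 are not drawn, and the dashed line marks equal levels. Notum over Axin2 lies at 10.2 to 11.7 in PD032 and at 0.258 to 0.396 in Aurka inh, and Sp5 over Axin2 falls in separate ranges in 2iLif, Aurka inh and the combination.

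Over the 15 libraries, which fall into 5 groups so that the points of a group share their medium, log2 CPM of Axin2 and Sp5 had a Pearson r of 0.938 and Dkk1 and Cdx1 one of 0.948. Axin2 and Notum had 0.502, and Notum and Nkd1 had -0.896. Outside the set, the protein-coding genes most like Axin2 were Trh, which encodes thyrotropin-releasing hormone (r = 0.995), Mllt6 (0.990) and Htr1b, a serotonin receptor (0.984). Trh stood at 772 ± 27.4 CPM in 2iLif, 58.6 ± 2.19 in FGF2/Activin, 12.9 ± 1.88 with PD032, 732 ± 28.3 with Aurka inh and 468 ± 51.0 with the combination (SD, n = 3). The genes most like Sp5 were Ido2 (0.986), Bcat1 (0.977) and Tgm3 (0.976), and Ido2 was, like Sp5, at 0 counts in PD032. Those most like Notum were Usp48 (0.988), Dmtn (0.986) and Sox2 (0.986), a core transcription factor of pluripotent cells. Sox2 stood at 503 ± 13.6 CPM in 2iLif, 172 ± 2.6 in FGF2/Activin, 299.6 ± 21.9 with PD032, 263 ± 65.7 with Aurka inh and 473 ± 14.2 with the combination. The single gene most like each other tested member was Zfp933 for Rnf43 (0.952), Taf4b for Znrf3 (0.961), Rbfox3 for Nkd1 (0.962), Tmem248 for Dkk1 (0.957), Cavin1 for Cdx1 (0.982) and Lck for Apcdd1 (0.945). These genes were picked from all tested genes for their likeness, and the values describe these libraries only.

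The rest of the pathway was followed in 7 lists with 109 genes, of which 86 were tested. Other known Wnt targets (22 genes, 20 tested) went both ways in each comparison described here. Their median log2 fold change had the opposite sign to that of the members in FGF2/Activin against 2iLif. It was 0.08 beside 1.42 in the combination against PD032. In the combination against Aurka inh (-1.02 beside -0.51) and in Aurka inh against PD032 (0.63 beside 1.95) the sign was shared. In FGF2/Activin against 2iLif, 11 were higher and 7 lower, with a median log2 fold change of 0.66. Lef1, a Tcf/Lef factor that is itself a target, rose from 1.78 ± 0.20 CPM in 2iLif to 75.2 ± 2.15 in FGF2/Activin (5.40 ± 0.12 SE, edgeR adjusted p = 3.91e-15). T, the mesoderm factor Brachyury, fell (-3.16 ± 0.27, edgeR adjusted p = 2.79e-08) and so did Tbx3 (-7.54 ± 0.34, edgeR adjusted p = 1.09e-11), a T-box factor of naive ES cells. Cdx2, the relative of Cdx1, fell as well (-2.20 ± 0.65, edgeR adjusted p = 0.0075).

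In the combination against PD032, 10 of these targets were higher and 7 lower (median 0.08). Nkx1-2, a homeobox gene, stood at 0.160 ± 0.047 CPM with PD032, 36.7 ± 3.53 with Aurka inh and 43.1 ± 7.83 with the combination, and was higher in the combination than in PD032 by 8.04 ± 0.22 on the log2 scale (edgeR adjusted p = 2.43e-13). T was higher there too (2.91 ± 0.40, edgeR adjusted p = 2.25e-05), whereas Lef1 was lower (-1.95 ± 0.08, edgeR adjusted p = 3.72e-11). In the combination against Aurka inh, 12 were lower and 2 higher (median -1.02), T among the lower (-3.06 ± 0.21, edgeR adjusted p = 2.20e-08). In Aurka inh against PD032, 11 were higher and 5 lower (median 0.63): T was at 8.21 ± 1.23 CPM in Aurka inh and at 0.123 ± 0.042 in PD032 (5.96 ± 0.29, edgeR adjusted p = 1.66e-10), while Lef1 stood at 54.7 ± 7.04 and 53.5 ± 1.78 CPM and did not pass (edgeR adjusted p = 0.866). Cdx2 had 62 counts over Aurka inh, 34 over the combination and 2 over PD032, and both groups passed against PD032 (edgeR adjusted p = 7.97e-05 and 0.00201).

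Of the 21 genes for Wnt ligands and their export, 10 were tested. FGF2/Activin against 2iLif had 4 higher and 4 lower; Wnt3 went from 2 counts over 2iLif to 123 over FGF2/Activin (count ratio 61.7, 95% exact interval 16.7 to 515, edgeR adjusted p = 3.64e-06). Both groups with Aurka inh had 4 higher and 3 lower against PD032. Wnt8a was at 28.0 ± 0.37 CPM in Aurka inh, 5.78 ± 1.06 in the combination and 0.588 ± 0.102 in PD032, and Wnt5b at 21.5 ± 0.88, 11.4 ± 0.70 and 0.659 ± 0.245. In Aurka inh they exceeded PD032 by 5.54 ± 0.17 and 5.04 ± 0.17 on the log2 scale (edgeR adjusted p = 5.28e-13 and 2.37e-12). The combination had 4 lower and none higher against Aurka inh, with Wnt8a lower by the widest margin (-2.27 ± 0.12, edgeR adjusted p = 1.54e-09).

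All 15 receptor genes were tested, and 10 were higher and 4 lower in FGF2/Activin than in 2iLif (median 1.76). Fzd2 rose (3.13 ± 0.11, edgeR adjusted p = 1.06e-12) and Ror2 fell (-2.89 ± 0.14, edgeR adjusted p = 2.29e-11). The combination had 3 higher and 8 lower against PD032, and 4 higher and 5 lower against Aurka inh, and Aurka inh had 3 higher and 6 lower against PD032. Fzd10 was at 60.2 ± 1.60 CPM in 2iLif, 8.28 ± 0.46 in FGF2/Activin, 8.49 ± 0.74 with PD032, 26.5 ± 3.14 with Aurka inh and 41.3 ± 3.71 with the combination. It exceeded PD032 in the combination (2.28 ± 0.10, edgeR adjusted p = 3.72e-11) and in Aurka inh (1.64 ± 0.10, edgeR adjusted p = 1.64e-09). Of the 5 genes for R-spondins and Lgr4, 3 were tested. Lgr4, the relative of Lgr5, was well expressed in every group, from 92.6 ± 3.51 CPM in 2iLif to 216 ± 4.38 in FGF2/Activin (1.23 ± 0.08, edgeR adjusted p = 1.39e-09), and Rspo1, a secreted partner of Lgr4, was higher in FGF2/Activin as well (4.64 ± 0.32, edgeR adjusted p = 2.56e-09).

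Among 16 further inhibitors that act outside the cell, at its surface or on receptors in transit, 9 were tested, with 4 higher and 2 lower in FGF2/Activin than in 2iLif. Sfrp1, a decoy that binds Wnt, was at 176 ± 1.78 CPM in 2iLif, 11.5 ± 0.69 in FGF2/Activin, 88.9 ± 13.2 with PD032, 13.7 ± 5.86 with Aurka inh and 94.7 ± 23.1 with the combination. It was lower in Aurka inh than in PD032 (-2.72 ± 0.21, edgeR adjusted p = 3.71e-08) and higher in the combination than in Aurka inh (2.81 ± 0.21, edgeR adjusted p = 7.32e-08). Dkk3 was lower in FGF2/Activin than in 2iLif (-4.46 ± 0.16, edgeR adjusted p = 7.72e-13). Shisa2, which holds Frizzled inside the cell, was lower than in PD032 both in the combination (-2.10 ± 0.17, edgeR adjusted p = 8.14e-08) and in Aurka inh (-2.72 ± 0.19, edgeR adjusted p = 8.59e-09). The counts of this list were 2 higher and 3 lower in the combination against PD032, 2 and 2 in the combination against Aurka inh, and 3 and 3 in Aurka inh against PD032. Of the 4 called in the combination against Aurka inh, 2 were called without Aurka inh replicate 3, combination replicate 1 or combination replicate 3.

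The 19 genes of the destruction complex and its regulators were all tested. In FGF2/Activin against 2iLif 7 were higher and 8 lower (median -0.06), with Apc2, the relative of Apc, higher by 1.90 ± 0.34 on the log2 scale (edgeR adjusted p = 0.000129). Ctnnb1, which encodes β-catenin, was higher by 0.29 ± 0.05 on the log2 scale (edgeR adjusted p = 7.69e-05), and Axin1, the relative of Axin2 that is not known as a Wnt target, was lower (-0.23 ± 0.05, edgeR adjusted p = 0.000768). Ctnnb1 was lower and Axin1 higher than in PD032 both in the combination (-0.28 ± 0.05 and 0.30 ± 0.05, edgeR adjusted p = 0.000285 and 9.97e-05) and in Aurka inh (-0.37 ± 0.05 and 0.26 ± 0.05, edgeR adjusted p = 1.71e-05 and 0.000429). Frat1 and Frat2, which bind GSK3, were lower in Aurka inh than in PD032 (-1.78 ± 0.37 and -1.10 ± 0.16, edgeR adjusted p = 0.00102 and 2.68e-05). Gsk3b was lower in Aurka inh than in PD032 (-0.31 ± 0.10, edgeR adjusted p = 0.0137), but not without Aurka inh replicate 2 or PD032 replicate 1 or 3 (edgeR adjusted p between 0.0537 and 0.0736). The number of these genes called was 9 in the combination against PD032, 9 in Aurka inh against PD032 and 2 in the combination against Aurka inh, and with replicate number as a block it was 14, 14 and 8. Without PD032 replicate 3 the first of these was 5. The last was 5 without Aurka inh replicate 1, and 1 without Aurka inh replicate 3 or combination replicate 3. Over all genes the block, fitted to the 9 inhibitor libraries, gave more calls as well. It called 8533 instead of 6660 genes in the combination against PD032 and 8648 instead of 6928 in Aurka inh against PD032. In the combination against Aurka inh it called 7181 instead of 5311.

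Of 11 nuclear partners of β-catenin and Tcf, 10 were tested. FGF2/Activin against 2iLif had 5 higher and 5 lower. The combination had 1 higher and 6 lower against PD032, Aurka inh 2 higher and 5 lower, and the combination 2 higher and 3 lower against Aurka inh, where 3 in all were called without Aurka inh replicate 3. Tcf7l1, the main repressing Tcf of ES cells, was at 105 ± 2.88 CPM in 2iLif, 137 ± 4.05 in FGF2/Activin, 195 ± 2.51 with PD032, 149 ± 5.54 with Aurka inh and 207 ± 8.31 with the combination. It was lower in Aurka inh than in PD032 (-0.39 ± 0.05, edgeR adjusted p = 3.62e-06), and the combination did not pass against PD032 (0.09 ± 0.05, edgeR adjusted p = 0.123) unless replicate number was a block (edgeR adjusted p = 0.0442). Tcf7l2 was lower than in PD032 in the combination (-1.06 ± 0.12, edgeR adjusted p = 2.49e-06) and in Aurka inh (-1.18 ± 0.12, edgeR adjusted p = 9.39e-07). The lists are described by counts and medians only, and the counts stand beside 65.9%, 43.7%, 34.9% and 45.5% of all genes called in the same comparisons.

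**Figure D4:**
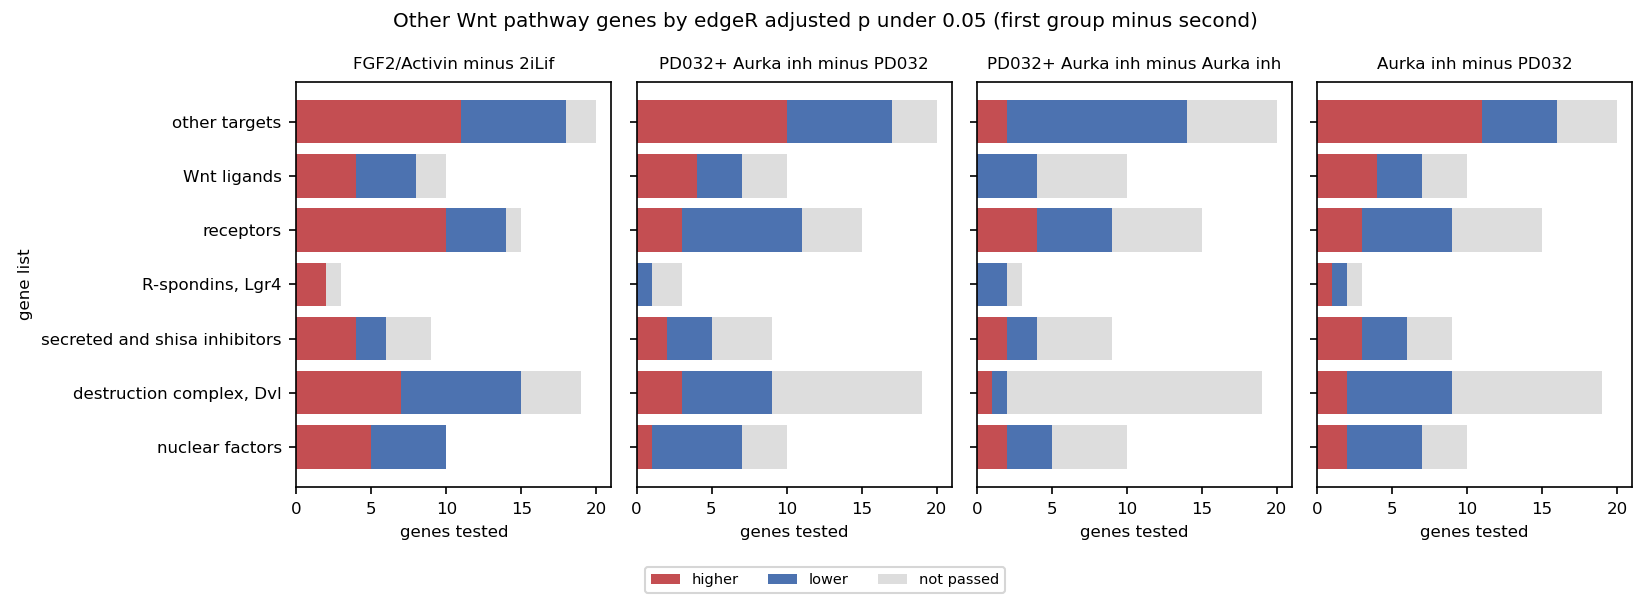
Number of tested genes (horizontal axis) in 7 lists of other Wnt pathway genes (rows) that were higher (red), lower (blue) or did not pass (grey) in the 4 comparisons within a naming style (panels), by edgeR adjusted p under 0.05. Other targets split 10 higher and 7 lower in the combination against PD032 and 2 higher and 12 lower against Aurka inh.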

How the data were processed

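Gene counts of 15 libraries were taken as the authors deposited them, as whole numbers per gene. A second table, of log2 values normalized and deposited by the authors, was used only to check the order of the groups, which was the same in it for all 10 genes. STAR, DESeq2 and the build mm10 are named in the submitters' processing notes. Their versions, the counting tool, its strand setting and the annotation are not given in the sources used. Per the labels' protocols, RNA had an integrity number above 7 and libraries came from a directional poly(A) kit.

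The counts were scaled by TMM, filtered with filterByExpr and fitted with the quasi-likelihood test of edgeR 4.0.16 (R 4.3.3), in one model of all 15 libraries with groups as terms (5.73 prior degrees of freedom). Of 49585 genes 15223 were tested, p was adjusted over all of these by Benjamini-Hochberg, and a gene passed below 0.05. CPM is edgeR's cpm value, the count over the TMM-scaled library total, per kb of GENCODE M21 exon union where genes are compared. The SE is the log2 fold change over the square root of F. Where a group held 0 counts, folds are bounds against 3 counts over the group, and with 1 to 3 counts a count ratio with a 95% exact interval is given. A bound does not include the counting error of the higher group. The fit was tested on simulated data. Alternatives used DESeq2 1.42.0 and limma 3.58.1, other scalings and filters, fewer libraries and a replicate block.

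To check the labels' replicate numbers, deviations from the group mean were correlated across genes. The r was 0.17 to 0.483 between same-numbered libraries of the inhibitor groups and -0.0448 to 0.0654 for other groups. Pairing of the inhibitor libraries was read from these values alone. The main fit held no replicate term, and replicate number entered only as a block in an alternative fit. Members and lists were chosen with earlier results of these data known. Named genes are the 10 members, the 3 genes most like Axin2, Sp5 and Notum by Pearson r of log2 CPM (prior count 2) and the 1 most like each other tested member, up to 2 genes with the largest passing fold change per Wnt list and comparison, and Ctnnb1, Gsk3b, Axin1, Lef1, Tcf7l1, Lgr4, T and Cdx2. Fzd10 and other list genes named in several groups were named by this rule in at least 1 of them.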

Additional observations from a re-analysis of the deposited data

How the results depend on the processing

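Of the values of single members refitted under other scalings, filters, tools and sets of libraries, 1152 kept their direction and their side of the threshold, 34 lost a call, 14 gained one and 14 changed sign. With only the 2 groups compared in the fit, 5 members passed in the combination against PD032 and 5 in Aurka inh against PD032, where 6 members instead of 9 were tested. Of all genes, 5474 instead of 6660 and 5291 instead of 6928 passed there, and 3480 instead of 5311 in the combination against Aurka inh. Leaving out 1 library at a time gave 8 to 8 members passed in FGF2/Activin against 2iLif, 6 to 9 in the combination against PD032, 4 to 5 against Aurka inh, 7 to 8 in Aurka inh against PD032, 8 to 9 in PD032 against 2iLif and in Aurka inh against 2iLif, 6 to 7 in the combination against 2iLif, 3 to 5 in PD032 against FGF2/Activin, and 5 to 6 in Aurka inh and in the combination against FGF2/Activin. Over all genes these fits called 9388 to 9575 in FGF2/Activin against 2iLif, 5589 to 6924 in the combination against PD032, 3961 to 5473 against Aurka inh and 5874 to 7126 in Aurka inh against PD032. Against 2iLif they called 8763 to 9712 in PD032, 8030 to 8908 in Aurka inh and 6227 to 7039 in the combination. Against FGF2/Activin they called 8154 to 8931, 7499 to 8029 and 9519 to 9932 in the same order. Rnf43 in the combination against PD032 also lost its call with DESeq2 (adjusted p = 0.0746) and limma-voom (0.0565), and Apcdd1 in PD032 and Znrf3 in the combination, both against FGF2/Activin, with DESeq2 (0.0615 and 0.0838), as did Dkk1 in Aurka inh against FGF2/Activin (0.0749). Apcdd1 in PD032 against FGF2/Activin also lost it with no filter on low counts (0.138), and Znrf3 in the combination against FGF2/Activin with either other scaling or a stricter filter (0.0537 to 0.0600). Znrf3 in PD032 against 2iLif lost it with library size alone (0.0694) and without PD032 replicate 2 (0.0578), and Rnf43 in Aurka inh against 2iLif gained one without Aurka inh replicate 1 (0.0256). Rnf43 in Aurka inh against FGF2/Activin gained one without Aurka inh replicate 2 (0.0253).

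Sign changes were among differences that did not pass in the main or the changed fit; the cause was not tested. With 1 library left out at a time, the log2 fold change ran from -0.0069 to 0.0519 for Znrf3 in FGF2/Activin against 2iLif, from -0.887 to 0.00063 for Dkk1 and from -0.230 to 0.0175 for Apcdd1 in the combination against Aurka inh, and from -0.102 to 0.539 for Nkd1 and from -0.00036 to 0.066 for Notum in the combination against 2iLif. It ran from -2.06 to 1.75 for Cdx1 and from -2.55 to 0 for Sp5 in PD032 against FGF2/Activin, and from -0.0315 to 0.399 for Nkd1 and from -0.128 to 0.0186 for Apcdd1 in Aurka inh against FGF2/Activin. For Lef1 in Aurka inh against PD032 it ran from -0.0691 to 0.116. Apcdd1 in Aurka inh against FGF2/Activin read 0.0095 with only the 2 groups in the fit.

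With replicate number as a block, 6 of 7 members tested passed in the combination and in Aurka inh against PD032, and 5 of 7 in the combination against Aurka inh; Dkk1 and Cdx1 were not tested there. Beside Znrf3 and Tcf7l1, given above, the block added calls for Gsk3b and Lgr4 in the combination against either inhibitor alone, for Cdx2 in the combination against Aurka inh, for Rnf43 in Aurka inh against 2iLif (adjusted p = 0.0388), and for Nkd1 (0.0347) and Rnf43 (0.0494) in PD032 against FGF2/Activin. It changed no other call of a member it tested. In the other groups equal numbers showed no sign of pairing (r from -0.026 to 0.00713 between FGF2/Activin and 2iLif), and the block gave 7 members for that comparison, 9, 9 and 7 for PD032, Aurka inh and the combination against 2iLif, and 6, 6 and 6 against FGF2/Activin. Over all genes it called 10790 in the first of these, 10111, 9422 and 7867 against 2iLif, and 9570, 8968 and 10609 against FGF2/Activin. Scalings moved the median of all genes by at most 0.0734 on the log2 scale. Depth limits Dkk1, Rnf43 and Lgr5, where differences between groups rest on 0 to 48 counts per group. It also limits Cdx1 outside 2iLif, where a group held 1 to 24 counts.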
